A study of Mus musculus with 20 samples.

Results

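The transcripts described here were mRNAs of mouse embryonic stem cells with lower values in heavy than in light polysome fractions, a difference that shrank or turned when the ribosomal protein gene Rpl10a was knocked down. They numbered 120 of 8084 transcripts measured by RNA-seq of polysome fractions, or 1.48%. Members were chosen by measured values. Their heavy minus light difference with control siRNA had to be −0.5 or lower on a log2 scale. Their shift, which is the heavy minus light difference with Rpl10a siRNA minus that with control siRNA, had to be 0.85 or higher. Their log2 ratio of footprints on RPL10A-containing ribosomes over all ribosomes had to be smaller than 0.6 in size. Of the 8084 transcripts, 2101 met the first threshold and 143 met the first and the second. The RPL10A ratio removed 21 of the 143, with 10 ratios above 0 and 11 below 0, and uc009qun.1 and uc009ama.1 were left out by name.

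The RNA-seq arm used wild-type E14 cells, a pluripotent mouse line, given an Rpl10a siRNA or a universal negative control siRNA. Heavy fractions, which held mRNAs with at least 4 ribosomes, and light fractions, which held everything from free ribonucleoprotein to polysomes of 3 ribosomes, were sequenced from each. The ribosome profiling arm used E14 lines with an epitope tag on 1 allele of Rpl10a (3xFLAG), Rps25 (3xFLAG) or Rpl22 (3xHA) at its own locus. Captured ribosomes (IP, through the tag) were compared with all ribosomes of the same line (total). Each of the 10 groups had 2 libraries, 20 in all, and all cells had received cycloheximide (100 µg/ml, 1 min). Whether replicates came from separate cultures is not stated in the labels. The p-values therefore refer to the spread among these libraries alone, and that spread may be technical. For the Rpl22 line the anti-HA antibody is listed for the total libraries too, so these are totals by title only.

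Ribosomes load onto an mRNA one after another, and a sucrose gradient separates mRNAs by how many they carry. An mRNA that sits in light fractions is untranslated, carries few ribosomes, or has a coding region too short for many. RPL10A is a protein of the large subunit at the stalk beside the exit site for tRNA, RPS25 is a protein of the small subunit, and RPL22 is another large-subunit protein. A small interfering RNA directs the cleavage of its target mRNA and so lowers the protein that new ribosomes receive. Ribosome profiling (Ribo-Seq) sequences the mRNA fragments that ribosomes protect from nuclease, and its signal on an mRNA reflects the number of ribosomes there.

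Transcripts carried UCSC identifiers, and 0 of 9498 matched the reference tables at hand. Gene names, gene lists, marker genes, sequences and Rpl10a mRNA are for this reason not analysed here, so neither the knockdown nor the cell type was checked. The Ribo-Seq values were RPKM (reads scaled by library size and transcript length) and the RNA-seq values were RPM, which is scaled by library size without length, so RNA-seq levels of single transcripts are not compared per length. Medians and quintiles of RPM rank transcripts by reads per library, which includes their length. Depth is unknown, since the files hold no counts. The deposited RNA-seq columns summed to between 943664 and 1067209 over the 8084 transcripts. Values are relative to the pool sequenced, so a change in the amount of RNA in a pool cannot be seen.

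With control siRNA the members stood in light fractions by rule, with a median heavy minus light difference of −0.84 and a range from −4.19 to −0.50. With Rpl10a siRNA the median was 0.08, and 74 members lay above 0 while 46 remained below. The 74 are 61.7% of the members, near the 59.4% of all 8084 transcripts above 0, and the share was 7.93% in the other light-side transcripts. The median over all 8084 transcripts was 0.16 with Rpl10a siRNA and −0.04 with control siRNA. Of the members, 15 were still at or below −0.5 with Rpl10a siRNA. The shift itself had a median of 0.95 and quartiles of 0.88 and 1.02, within a range from 0.85 to 1.24. The median shift was 0.24 over the other 1981 light-side transcripts and 0.09 over all transcripts. These values chose the members and are given as a description.

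**Figure D1:**
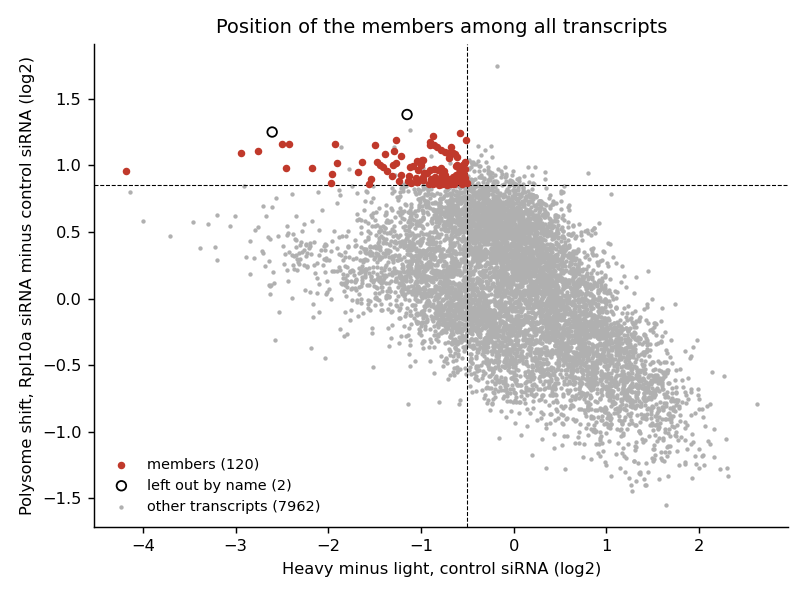
Each point is 1 transcript of the RNA-seq table, with its heavy minus light difference in control cells on the x axis and its polysome shift on the y axis (both log2). The dashed lines are the thresholds of −0.5 and 0.85. The 120 members (red) lie left of the first line and above the second, in a corner that holds 143 transcripts, and 62 of the members have shifts under 0.95, against the edge.

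The thresholds cut through a continuous cloud of transcripts. The members nearest to the shift threshold had shifts of 0.8505 and 0.8513, and the light-side transcripts nearest below it had 0.8496 and 0.8492. Between shifts of 0.75 and 0.85 lay 80 light-side transcripts that are not members. Transcripts outside a threshold are given here only where they met the other parts of the rule. At the other edges, the nearest member had a control difference of −0.502 and the nearest transcript outside had −0.4997. The RPL10A ratios nearest to the bound were 0.594 in size inside it and 0.607 outside it. The rule found 90 transcripts without the first and 315 without the second Rpl10a siRNA heavy library, and 48 with library medians aligned.

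The members' shift came mostly from higher values in heavy fractions. These data hold no RNA-seq of unfractionated siRNA-treated cells, so a change in the total level of an mRNA was not measured. The change in heavy fractions, Rpl10a siRNA over control siRNA, was above 0 in all 120 members, with a median of 0.88 and a range from 0.01 to 2.09. The median change was 0.08 in the other light-side transcripts and 0.01 in all transcripts, with 53.0% and 50.7% of them above 0. In light fractions the members' median change was −0.11, with 45 members above 0, 75 below 0 and a range from −1.04 to 1.11. The other light-side transcripts had a median of −0.15 there and all transcripts one of 0.02. Above 0 in light fractions were 37.5% of the members, 35.6% of the other light-side transcripts and 52.1% of all transcripts. With library medians aligned, 116 of 120 members were above 0 in heavy fractions and 40 were above 0 in light fractions. With scaling to library totals these numbers were 120 and 54, and the median change in heavy fractions over all transcripts moved to −0.12 with medians aligned and to 0.12 with library totals.

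In single libraries, the median member had 40.4 and 35.2 RPM in the heavy fractions of Rpl10a siRNA cells, against 19.9 and 19.5 RPM in those of control cells. In light fractions it had 33.8 and 39.6 RPM with Rpl10a siRNA, against 35.1 and 37.5 RPM with control siRNA. The medians of the heavy groups thus did not overlap, while those of the light groups did. The 2 heavy libraries of Rpl10a siRNA cells differed for the members, with a median log2 difference of −0.20 (second minus first) against 0.01 over all transcripts.

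**Figure D2:**
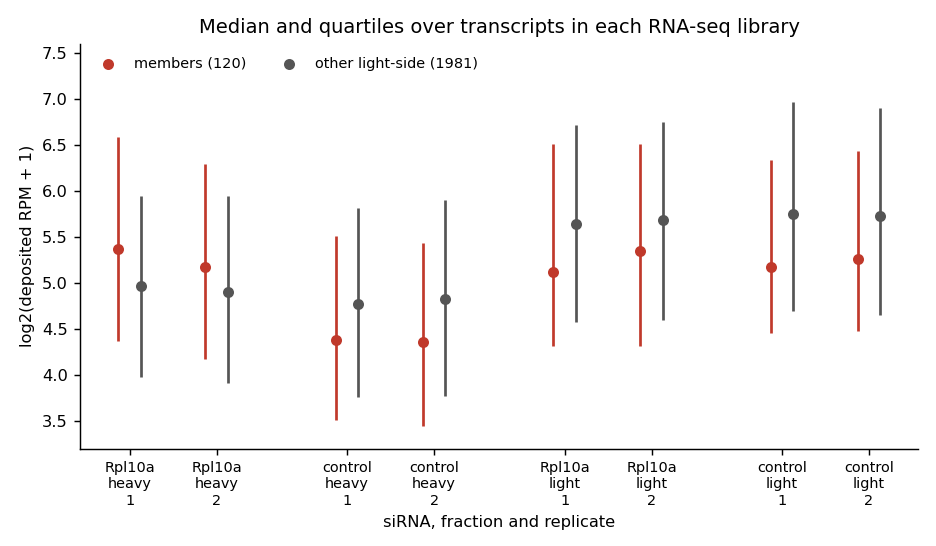
Points are medians over transcripts in each RNA-seq library and vertical lines run between the quartiles, as log2(deposited RPM + 1), for the 120 members (red) and the other 1981 light-side transcripts (grey). Both heavy libraries of Rpl10a siRNA cells have member medians above those of the control heavy libraries, 40.4 and 35.2 RPM against 19.9 and 19.5 RPM, while the grey medians of these 4 libraries lie close together.

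Summed over members, the transcripts made up 1.48% and 1.34% of the heavy fraction values of Rpl10a siRNA cells, against 0.766% and 0.743% of those of control cells. In light fractions they made up 1.90% and 2.06% with Rpl10a siRNA, against 2.29% and 2.76% with control siRNA. A large portion of the light sum came from uc007vmx.2 and uc008ulu.1, the members with the highest RPM. Without them the members held 1.23% and 1.05% of the heavy values of Rpl10a siRNA cells against 0.588% and 0.561% in control cells, and 1.17% and 1.21% of the light values against 1.28% and 1.36%.

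Calls in these contrasts use the values behind the rule and are printed beside the background only to describe precision. In limma (adjusted p below 0.05), 62 of 120 members were called higher in the shift, where 2.86% of all 8084 transcripts were. In heavy fractions 104 members were called higher with Rpl10a siRNA, against a background of 26.8%. In light fractions 6 members (5%) were called lower, against 3.61% of all and 11.5% of the other light-side transcripts, and 3 were called higher, against 2.51% of all transcripts. The called members had a median standard error of the shift of 0.20 and a median level of 51.0 RPM over the 8 libraries, and the others had 0.29 and 21.5 RPM. With replicate number as a block in the fit, 120 members were called higher in the shift, as were 1463 of all 8084 transcripts. No label ties a replicate number to a culture. The number called in the shift also depended on single libraries, among all transcripts as among the members. With single libraries left out, which leaves 1 library in a group, the members' median shift ran from 0.86 to 1.07. In a fit without a variance trend 0 members were called, as were 0 of all 8084 transcripts.

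The 120 shifts came about in different ways, and a member was classed by whether at least 2/3 of its shift came from 1 pool. In 91 members (75.8%) the rise in heavy fractions supplied that share. Their median change was 0.96 in heavy and 0.00 in light fractions, and 62 of them were higher in heavy than in light fractions with Rpl10a siRNA. In 23 members (19.2%) both pools contributed, with medians of 0.50 in heavy and −0.46 in light fractions. In 6 members (5%) a fall in light fractions supplied the share. These 6 had a median change of −0.93 in light and 0.12 in heavy fractions, and none gained more than 0.22 in heavy fractions. These 6 thus had lower relative values in the light pool and little difference in heavy polysomes on this scale, and a gain of ribosomes is not shown for them. Among them, uc007zlv.2 and uc009rru.2 had at most 0.5 RPM in every heavy library, where log2(value + 1) can show little change.

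**Figure D3:**
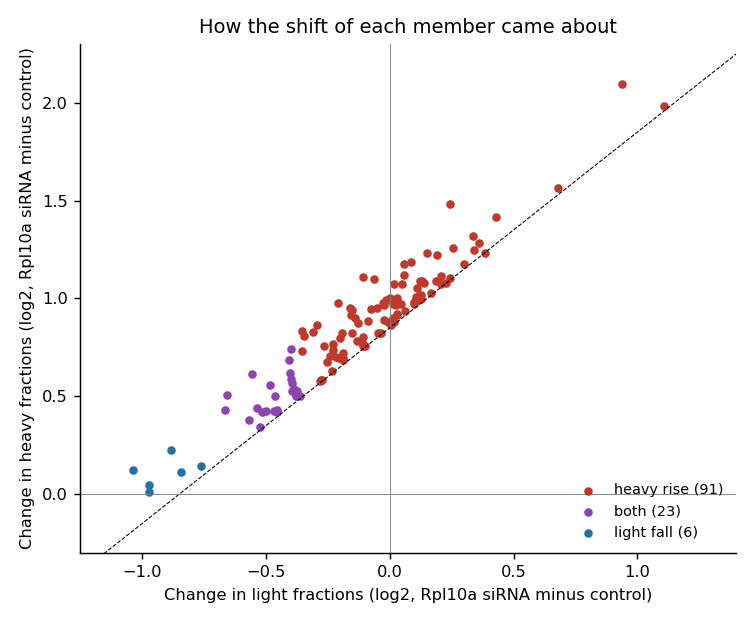
Each point is 1 of the 120 members, with its change in light fractions on the x axis and its change in heavy fractions on the y axis (log2, Rpl10a siRNA minus control siRNA). The dashed line marks a shift of 0.85. The 91 members whose shift came mainly from heavy fractions (red) have a median light change of 0.00, within a range from −0.36 to 1.11. The 6 with a fall in light fractions (blue) lie near a heavy change of 0.

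The starting position differed between these classes. The median control difference was −0.78 in the 91 members with a rise in heavy fractions, −1.05 in the 23 mixed members and −2.48 in the 6 with a fall in light fractions. Of the 78 members with a control difference above −1, 72 were higher in heavy than in light fractions with Rpl10a siRNA. The 7 members at or below −2 with control siRNA stayed on the light side, between −3.23 and −1.20 with Rpl10a siRNA. Their median change was −0.84 in light fractions and 0.22 in heavy fractions, where the changes ran from 0.01 to 0.50. The heavy median is the value of uc007zlv.2, which had at most 0.5 RPM in every heavy library. The control libraries enter both the position and the shift, so these 2 values are not independent. The rule requires a shift of at least 0.85, so a member less than 0.85 below 0 in control cells must end above 0. The highest shift of a member was 1.24, so the members at or below −2 could not reach 0. The sides reached are therefore a description.

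Among members at or above the median level, the largest shifts belonged to uc008ekv.2 and uc008mil.1. In heavy fractions uc008ekv.2 had 84.0 and 75.5 RPM with Rpl10a siRNA, against 36.4 and 36.4 RPM with control siRNA. Its light values were 59.0 and 65.8 RPM with Rpl10a siRNA, against 64.4 and 70.3 RPM with control siRNA. The heavy groups of uc008ekv.2 were far apart and the light groups overlapped, for a shift of 1.22 (SE 0.17). For uc008mil.1 both pools moved. It had 305.7 and 354.2 RPM in heavy fractions with Rpl10a siRNA, against 207.9 and 221.0 RPM with control siRNA. Its light values were 250.0 and 296.6 RPM with Rpl10a siRNA, against 360.7 and 446.6 RPM with control siRNA, and its shift was 1.17 (SE 0.21). No groups of uc008mil.1 overlapped within a pool.

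A few members at the extremes were singled out after their values had been seen. The largest change in heavy fractions was that of uc008qnc.2, which had 362.0 and 342.5 RPM there with Rpl10a siRNA, against 93.1 and 71.7 RPM with control siRNA. It was also higher in light fractions, with 305.7 and 271.0 RPM with Rpl10a siRNA against 164.5 and 136.2 RPM with control siRNA. Its changes were 2.09 in heavy and 0.94 in light fractions, so this transcript was more abundant in both pools and its shift of 1.16 is the remainder. The opposite case was uc007bok.1, with 135.4 and 131.3 RPM in heavy fractions with Rpl10a siRNA against 110.7 and 135.6 RPM with control siRNA. Its light values were 346.9 and 333.3 RPM with Rpl10a siRNA, against 619.1 and 789.7 RPM with control siRNA. Its heavy groups overlapped and its light groups did not, and its change in light fractions was −1.04, the lowest of all members.

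The member deepest in the light fractions was uc008azq.2. It had 13.3 and 10.7 RPM in heavy fractions with Rpl10a siRNA and 12.1 and 9.9 RPM with control siRNA. In light fractions it had 129.4 and 112.0 RPM with Rpl10a siRNA and 232.6 and 202.2 RPM with control siRNA. It met the rule without leaving the light side, since its heavy minus light difference was −3.23 with Rpl10a siRNA and −4.19 with control siRNA. The member with the highest RPM, uc007vmx.2, had 1062.3 and 1148.8 RPM in heavy fractions with Rpl10a siRNA, against 765.3 and 880.6 RPM with control siRNA. Its light values were 3661.3 and 4361.2 RPM with Rpl10a siRNA, against 5603.5 and 7162.4 RPM with control siRNA. It stood on the light side under both siRNAs, with a heavy minus light difference of −1.85 with Rpl10a siRNA and −2.95 with control siRNA.

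**Figure D4:**
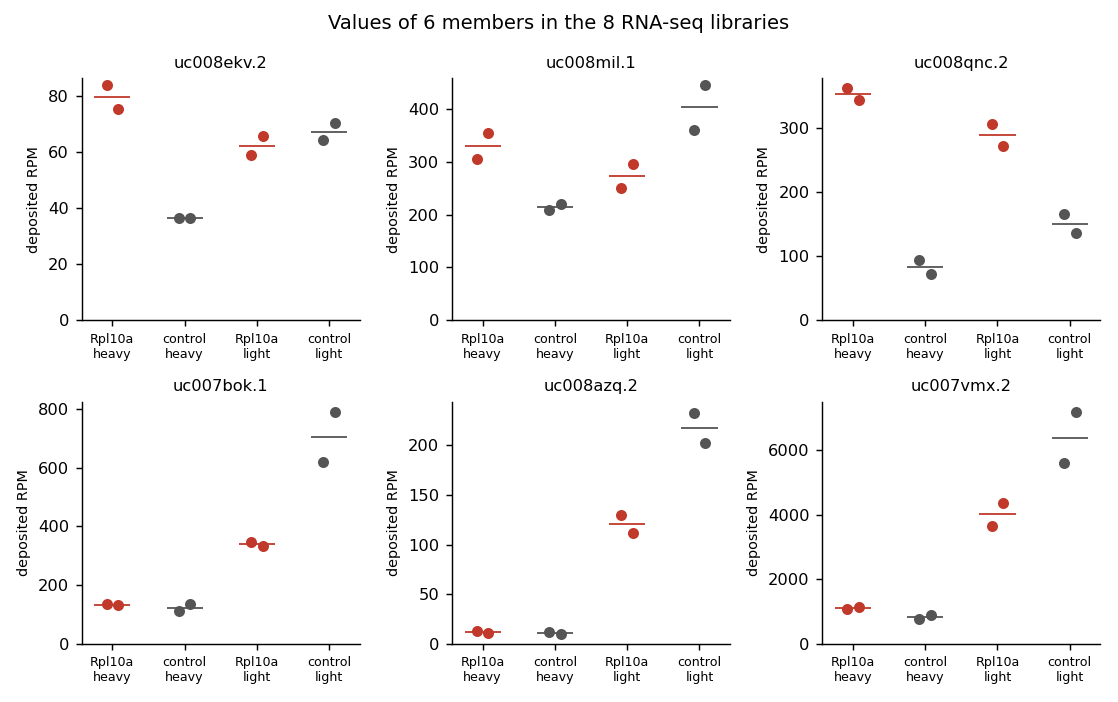
Deposited RPM of 6 members in the 8 RNA-seq libraries. Points are libraries, horizontal lines are means of 2, red is Rpl10a siRNA and grey is control siRNA, and each y axis starts at 0. uc008ekv.2 shows the rise in heavy fractions, uc007bok.1 and uc008azq.2 the fall in light fractions, and uc008mil.1 and uc007vmx.2 both. uc008qnc.2 rose in both pools, and more in heavy than in light fractions.

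The rule used the mean shift of these libraries, so their spread is a description. The shift was above 0 in every choice of 1 library per group in 118 of 120 members, against a background of 27.1% of all transcripts, from which nothing is read. The lowest such value of a member had a median of 0.61 over members. The exceptions were uc007nbg.2 and uc007uxc.1, chosen after their values were seen. In heavy fractions uc007nbg.2 had 218.7 and 436.6 RPM with Rpl10a siRNA, against 96.9 and 176.5 RPM with control siRNA. In light fractions it had 155.4 and 326.2 RPM with Rpl10a siRNA, against 140.7 and 292.8 RPM with control siRNA. The library numbered 2 held the higher value of uc007nbg.2 in all 4 groups, and its lowest shift from single libraries was −0.90. From the libraries numbered 1 alone its shift was 1.02, and from those numbered 2 it was 1.15. For uc007uxc.1, with a mean of 6.89 RPM, the lowest was −0.10.

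Members were found at all levels. Their median RNA-seq level was 33.5 RPM, against 48.0 RPM over all transcripts, and 45 of 120 stood at or above that overall median. With all transcripts split into quintiles by level, from low to high, 33, 31, 23, 15 and 18 were members. They made up 6.51%, 6.75%, 5.37%, 4.04% and 5.36% of the light-side transcripts of these quintiles. A fold on the log2(value + 1) scale understates the change of low transcripts, and 10 members had a mean below 10 RPM.

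The RPL10A ratio was bounded by the rule and is described only. None of the 120 members was called in the RPL10A IP over its total in limma (adjusted p below 0.05), against 1.46% of 8505 transcripts, and 14 had an unadjusted p below 0.05 (limma), against 24.3%. The members' median log2 ratio was 0.00, with 60 members above 0 and 60 below.

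Footprints on RPS25- and RPL22-containing ribosomes were not used in the choice and could be tested. They measure how the members were represented on ribosomes captured through other proteins, in cells without knockdown. In the RPS25 IP, 113 of the 120 members were measured, and 1 was called higher and 0 lower than in total ribosomes (limma, adjusted p below 0.05). The background was 0.0342% higher and 0.0114% lower of 8779 transcripts. In the RPL22 IP, 116 members were measured and 0 were called, as were 0% of 8588 transcripts (limma). The smallest adjusted p of a member there was 0.130 in limma. With replicate number as a block in the fit, 7 members were called in the RPL22 IP, against 8.06% of all transcripts.

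At an unadjusted p below 0.05 in limma, 11 of 113 members were higher in the RPS25 IP and 13 were lower, which is 9.73% and 11.5% of the measured members. The background was 11.1% higher and 9.75% lower, near the members' shares, and the other light-side transcripts had 15.1% higher and 6.35% lower. In the RPL22 IP 8 of 116 members were higher and 19 lower at that level, 6.90% and 16.4%, against a background of 8.87% and 11.3%. The other light-side transcripts had 15.4% lower in the RPL22 IP, near the members' share. An exact test of 2 libraries against 2 cannot give a p below 0.333, so non-overlap of libraries is a description. IP libraries lay wholly above the total libraries in 27 members and wholly below in 28 for RPS25, against backgrounds of 27.9% and 25.9%. In the other light-side transcripts these shares were 36.7% and 18.7%, and in the measured members 23.9% and 24.8%. For RPL22 they lay wholly above in 20 members and wholly below in 55, against backgrounds of 21.5% and 31.4%. The 55 members are 47.4% of those measured, and 36.7% of the other light-side transcripts lay wholly below, a difference for which no test was made.

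The members' median log2 ratio in the RPS25 IP was −0.02, with a range from −0.76 to 1.30, 53 members above 0 and 60 below. All 8779 transcripts had a median of 0.01 and the other light-side transcripts one of 0.09. Of the members 46.9% had an RPS25 ratio above 0, against 51.5% of all 8779 transcripts. The share was 61.6% in the other light-side transcripts and 62.6% in those among them whose RPL10A ratio was bounded in the same way. No test of these differences was made, and the members' median was 0.04 without the first total or the second IP library of the Rps25 line. In the RPL22 IP the median was −0.11, with a range from −0.50 to 0.41, 36 members above 0 and 80 below. The 80 are 69.0% of the measured members, and 55.9% of all 8588 transcripts were below 0. The share was 61.0% in the other light-side transcripts and 62.8% in those with the RPL10A bound, and no test was made. All 8588 transcripts had a median of −0.03 and the other light-side transcripts one of −0.07. With scaling to library totals the members' RPL22 median was −0.19 and that of all transcripts −0.12, so the distance between them was −0.07 under both scalings.

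**Figure D5:**
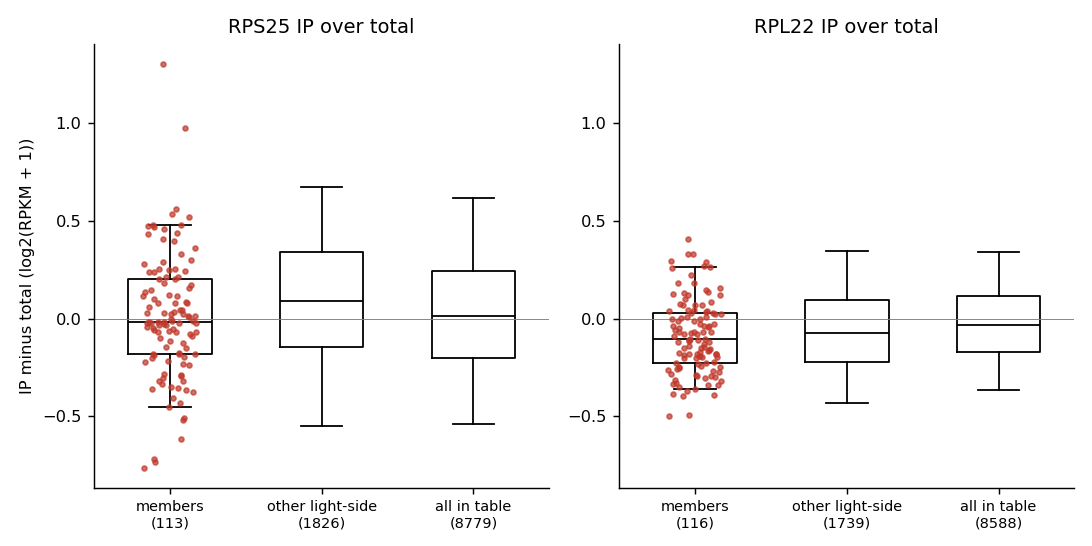
The y axis is the IP minus total difference of log2(RPKM + 1). Red points are members, boxes show the median and quartiles, and whiskers run from the 5th to the 95th percentile, for members, other light-side transcripts and all transcripts of the table. Member medians are −0.02 for RPS25 and −0.11 for RPL22, against 0.01 and −0.03 for all transcripts of each table.

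The single called member was uc009iah.3. It had 252.3 and 222.6 RPKM in the RPS25 IP, against 99.4 and 91.8 RPKM in total ribosomes, for a log2 ratio of 1.30 (SE 0.11, limma adjusted p = 0.0366). Both IP libraries were above both totals. In the RPL22 line it had 177.0 and 161.9 RPKM in the IP and 177.1 and 162.3 RPKM in total ribosomes, which lie on top of each other. In heavy fractions it had 152.1 and 144.4 RPM with Rpl10a siRNA, against 79.4 and 61.3 RPM with control siRNA. Its light values were 112.7 and 97.2 RPM with Rpl10a siRNA and 102.1 and 100.3 RPM with control siRNA, so its shift of 1.03 (SE 0.21) lay in heavy fractions. The RPS25 call was lost without a variance trend (limma adjusted p = 0.180), where 0 of all 8779 transcripts were called. It was also lost without any 1 of the 4 libraries, which leaves 1 library in a group, with ratios from 1.21 to 1.39.

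The lowest ratio of a member with non-overlapping libraries was that of uc007vbe.2 in both lines. In the RPS25 IP it had 7.9 and 7.5 RPKM, against 12.5 and 15.1 RPKM in total ribosomes (log2 ratio −0.76, SE 0.20, limma adjusted p = 0.133). Its RPL22 IP values were 4.6 and 6.1 RPKM, against 7.6 and 8.2 RPKM in the totals (log2 ratio −0.50, SE 0.17, limma adjusted p = 0.166). Neither difference passed the threshold. The highest RPL22 ratio was that of uc009fml.1, with 28.5 and 25.2 RPKM in the IP against 18.1 and 22.0 RPKM in total ribosomes (log2 ratio 0.41, SE 0.13, limma adjusted p = 0.154).

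By class, the RPS25 median was −0.02 in 84 measured members with a rise in heavy fractions, 0.01 in 23 mixed members and −0.01 in the 6 with a fall in light fractions. The RPL22 medians were −0.11, −0.08 and −0.22 in the same order, over 89, 21 and 6 members. Over the 109 members measured in both lines the RPS25 and RPL22 ratios had r = 0.15 (Spearman rho 0.18). Over all 8049 shared transcripts r was −0.05 (rho −0.05). The ratios of all members come from the same libraries, and each line's table was normalized on its own, so the correlation across transcripts is a description.

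Total ribosome footprints placed the members between the other light-side transcripts and the table as a whole. The median member had 20.5 RPKM in the totals of the Rps25 line, with a range from 3.60 to 2432 RPKM, against 15.9 RPKM in the other light-side transcripts and 23.9 RPKM in all. In the Rpl22 line the medians were 21.9 RPKM for members, 17.0 RPKM for the other light-side transcripts and 25.4 RPKM for all. Over the 109 members measured in both, log2 totals of the lines had r = 0.97, and over all 8049 shared transcripts r = 0.94. No footprints were measured under knockdown, so these values describe unperturbed tagged cells.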

How the data were processed

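Ribo-Seq files hold RPKM per transcript, deposited by the authors, and RNA-seq files hold values that the authors' file headers call RPM. As deposited by the authors, the RPM columns differ in their sums, so they were handled as a signal with a further scaling factor that no source used here states. Whole reads could not be recovered. Cutadapt, Bowtie2 and mm10 are named for every library in the submitters' processing notes, and STAR for the RPL22 and RNA-seq ones, with no versions. Per the labels' protocols, the lysis buffer of the RPL22 and RNA-seq sets lists no heparin. No source used here states how transcripts were filtered.

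Values were taken to log2(value + 1) and fitted with limma 3.58.1 in R 4.3.3 with a variance trend over all transcripts of each table, and p-values were adjusted by Benjamini-Hochberg over all of them (two-sided, threshold 0.05). IP and total libraries of each line were fitted alone, and the 8 RNA-seq libraries together. The RPL10A ratio in the rule used log2 of mean RPKM + 1. Scripts were tested on simulated data. At most 1.53% of values were identical between replicates, and their Pearson correlation on log2 values ran from 0.973 to 0.995.

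Members, contrasts, pseudocount and lists were chosen with earlier results of these data known. Named identifiers were at most 2 per direction and comparison: the largest shifts at or above the median level, and the highest and lowest IP ratios without overlap. Alternatives were other pseudocounts, a floor of 10 on the mean, aligned medians, library totals, no variance trend, a replicate block and single libraries left out.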

Additional observations from a re-analysis of the deposited data

Results flagged for a closer look

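For uc009fml.1 the captures pointed in opposite directions, with log2 ratios of −0.43 (RPS25 IP) and 0.41 (RPL22 IP). In the Rps25 line it had 15.1 and 8.5 RPKM in the IP, against 15.5 and 15.9 RPKM in total ribosomes. For uc008ekv.2 the ratios were 0.16 in the RPS25 IP and −0.12 in the RPL22 IP. In both transcripts IP and total libraries did not overlap within either line. The difference between the lines was not tested, since their tables were normalized separately, and no ratio of these transcripts passed the threshold in limma.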

How the results depend on the processing

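Having 2 libraries per group and unknown depth limits every value here, and transcripts near the thresholds enter or leave with small changes. The rule found 120 transcripts as described. It found 48 with a pseudocount of 5 (44 shared with the 120), 48 with library medians aligned (all 48 shared) and 90 to 315 with single libraries left out (63 to 117 shared). The extremes were 90 without the first and 315 without the second Rpl10a siRNA heavy library. It found 204 without the second Rpl10a siRNA light library, 235 without the first control heavy library and 210 without the first control light library. The members' median shift was 0.86 to 1.07 with single libraries left out, and 0.83 to 1.00 under the other pseudocounts, floor and scalings.

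Of the members, 62 were called in the shift in limma, 0 without a variance trend and 0 to 101 with single libraries left out. In the RPS25 IP 1 member was called, as were 4 of all 8779 transcripts, and without a variance trend 0 members and 0 of all transcripts were. Without any 1 library the call of that member, uc009iah.3, was lost, and its ratio ran from 1.21 to 1.39. In the RPL22 IP 0 members were called in every setting but the replicate block. The members' median RPS25 ratio was −0.07 to 0.04 with single libraries left out. Their median RPL22 ratio of −0.11 was −0.077 with medians aligned, −0.19 with library totals and −0.13 to −0.09 with single libraries left out. The causes were not tested. Of 85 alternatives to these counts and medians, 61 stayed within 1.5 times or the replicate spread, and 24 did not. The named transcripts kept their direction in every alternative run.

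A replicate block called 120 members in the shift (2520 of all transcripts), 1 in the RPS25 IP and 7 in the RPL22 IP, 4 higher and 3 lower (692 of all transcripts). Deviations of libraries with the same number correlated with r from 0.40 to 0.62 between RNA-seq groups, 0.01 in the Rps25 line and 0.18 in the Rpl22 line. With 2 replicates and no label linking a number with a culture, the numbers were not taken to pair the samples.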

Other observations

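Among the members, uc007zlv.2 combined low RNA-seq values with high footprint densities. It had 0.4 and 0.5 RPM in heavy fractions with Rpl10a siRNA, against 0.1 and 0.4 RPM with control siRNA. Its light values were 3.4 and 3.7 RPM with Rpl10a siRNA, against 7.6 and 7.2 RPM with control siRNA. Its total footprints were 2444 and 2421 RPKM in the Rps25 line and 3085 and 3018 RPKM in the Rpl22 line. Its ratio of total footprints to mean RNA-seq level ranked 1 of 7704 transcripts in the Rps25 line and 1 of 7489 in the Rpl22 line. The RNA-seq values are not per length, so this ratio mixes length with ribosome density. It also rests on RNA-seq values of at most 7.6 RPM, and the cause of its rank was not tested.

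The members uc007xoj.1 and uc007xom.1 lie 3 identifiers apart and had nearly equal footprints. Their ratio, uc007xoj.1 over uc007xom.1, was 0.997 to 1.17 across the 12 Ribo-Seq libraries and 2.28 to 3.03 across the 8 RNA-seq libraries. Their shifts were 0.93 (SE 0.15) and 0.95 (SE 0.15). Whether they share sequence was not tested, and if reads were split between copies their values are not separate measurements.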
